A study of Mus with 8 samples.

Results

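The 10 genes described here carry out the loading of peptides onto major histocompatibility complex (MHC) class I: the heavy chains H2-K1 and H2-D1, the light chain B2m, the peptide transporter subunits Tap1 and Tap2, the loading factor Tapbp (tapasin), the inducible proteasome subunits Psmb8, Psmb9 and Psmb10, and the transactivator Nlrc5. They were chosen by name, and their 15 probes were found through the RefSeq accession of each array probe, out of 32994 probes matched to 22911 genes. At least 1 probe of all 10 genes was well above background on each of the 8 arrays, so that the 10 genes were among the 16068 genes tested, and 14 of the 15 probes passed the filter on dim probes.

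RNA came from 8 whole subcutaneous tumours grown from transplanted Pan02 cells, a pancreatic cancer line from C57BL/6 mice. Hosts, of a B6 background by their labels, were wild type (Control, 4 tumours) or Ext1 flox/flox; S100a4-Cre (Mutant, 4 tumours), and tumours were removed 36 to 40 days after transplantation and each hybridised to 1 Agilent array with 1 dye, Cy3. Ext1 encodes an enzyme that builds heparan sulfate chains, S100a4 drives Cre in fibroblasts and in some other stromal and immune cells, and the transplanted cancer cells carry no Cre and keep Ext1 in both groups. The controls are labelled as wild type and not as Ext1 flox/flox or S100a4-Cre littermates. In whole-tumour RNA, fewer cells of a type and less RNA per cell cannot be told apart.

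MHC class I molecules display fragments of a cell's own proteins to CD8 T cells. The proteasome cuts proteins into peptides, the Tap1 and Tap2 transporter carries the peptides into the endoplasmic reticulum, and tapasin holds empty class I molecules, each a heavy chain paired with beta-2 microglobulin, at the transporter until a peptide fits. Interferon gamma, released mainly by T cells and natural killer cells, raises most of these genes together, in part through Irf1 and Nlrc5, and exchanges catalytic proteasome subunits for the inducible forms in both cancer and host cells. Psmb9, Tap1, Psmb8 and Tap2 follow each other in this order as neighbouring coding genes within the MHC region (gene table of GRCm38.p6), while B2m, Psmb10 and Nlrc5 lie outside it.

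Levels are log2 of the processed signal minus that array's 75th percentile, so that 1 unit is a doubling, and differences are Mutant minus Control. A level is compared only with the same probe in other tumours, since different probes are not on a common scale. Of 56605 probes, 61.5% to 67.2% per array had a signal well above background, with 0 saturated spots. The 8 arrays shared 1 slide, with 2 Control and 2 Mutant tumours in each of its 2 rows. Row 1 held the tumours numbered 1 and 2 and row 2 those numbered 3 and 4, so that slide row and replicate number cannot be told apart. The Ext1 probe read 3.07 ± 0.76 (SD, n = 4) in Control and 3.15 ± 0.22 (SD, n = 4) in Mutant tumours, with a difference of 0.072 (SE 0.36). Where this probe sits relative to the loxP sites was not tested, so the Ext1 level is no check of the labels.

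No class I processing gene was called different between Control and Mutant hosts, and each difference was smaller than the SD among Control tumours. For Tap2, Tapbp, Psmb8, Psmb9 and Nlrc5 the difference was larger than the SD among Mutant tumours. All 10 genes had a difference above 0, where 52.4% of the 16068 genes tested did. The 10 genes vary together across tumours (median r 0.95), so counts over them, here and below, are not separate results. The differences ran from 0.16 for B2m to 0.53 for Nlrc5, with a median of 0.30, against a median of 0.010 over all genes. None of the 10 passed an adjusted p under 0.05 in the limma fit over all genes (adjusted p = 0.9996 for each), where 0.0% of all genes were called. At an unadjusted p under 0.05 the members' count was again 0 of 10, against 2.91% of genes. Control and Mutant values overlapped for each of the 10, while the groups did not overlap for 1.42% of genes.

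The tumours themselves differed widely and in nearly the same order for each gene. Control 3 had the highest level of all 10 genes. Control 1 had the lowest level of 9 genes, the exception being Psmb10, which was lowest in Control 2. The 3 lowest tumours were Control 1, Control 2 and Mutant 3 for 10 of 10 genes, a set that held the 3 lowest values for 5.23% of the genes tested. For 10 of 10 genes the 4 Control tumours held both the highest and the lowest of the 8 values, with the Mutant tumours between them, as was the case for 47.2% of the genes tested. The SD among Control tumours was larger than among Mutant tumours for 10 of 10, against 79.7% of genes.

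**Figure D1:**
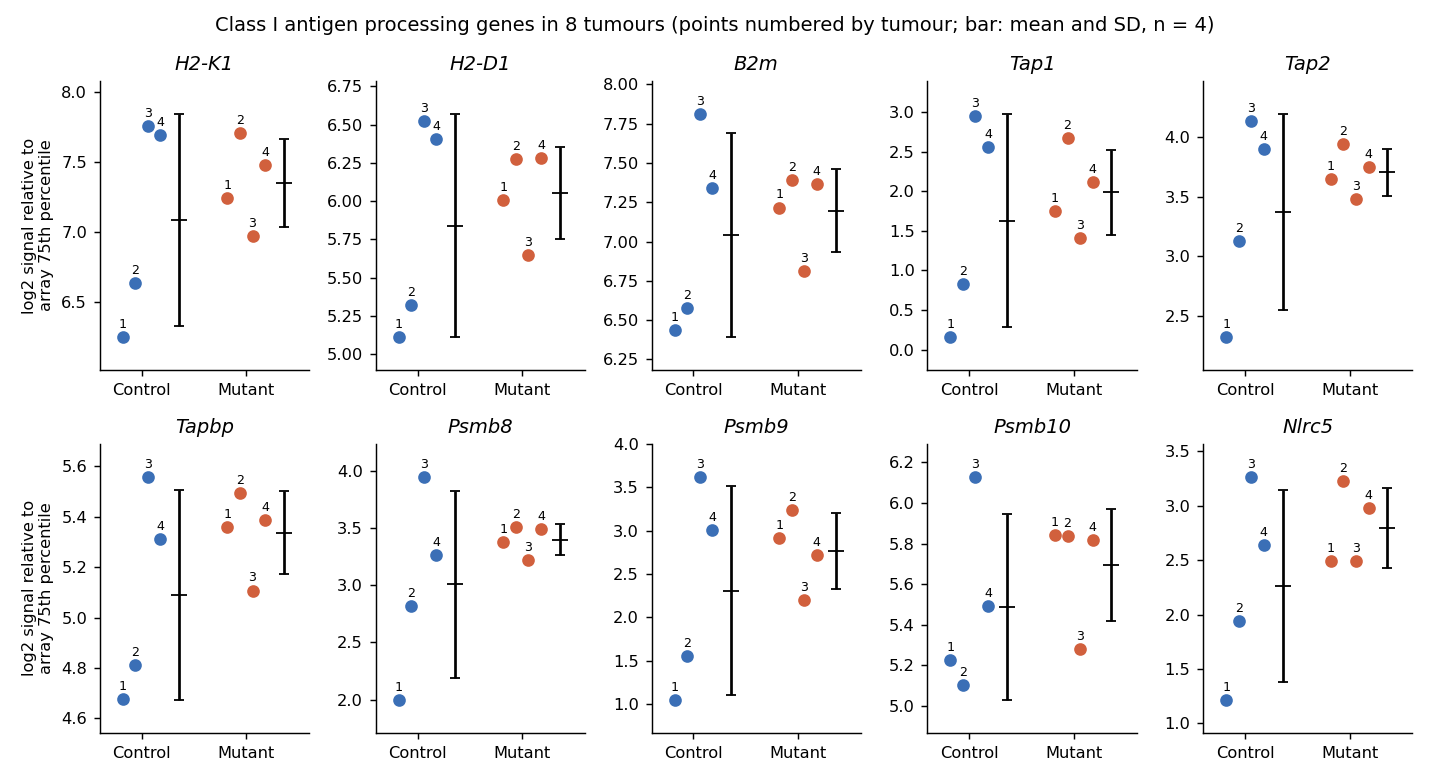
Level of the 10 class I processing genes in each tumour, as log2 signal above the array's 75th percentile (y axis, a separate scale for each gene), in Control (blue) and Mutant (orange) tumours, with each point numbered by tumour and the mean and SD (n = 4) at its right. Control 1 and Control 2 lie at the bottom and Control 3 at the top of each panel, and the 4 Mutant tumours lie between them.

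The heavy chains carry the peptide to the cell surface. H2-K1 read 6.25, 6.63, 7.76 and 7.69 in Control tumours 1 to 4 and 7.24, 7.71, 6.97 and 7.48 in Mutant tumours 1 to 4. Control 1 and 2 were below every Mutant tumour, and Control 3 lay above every one of them. The difference was 0.27 (SE 0.37, 95% interval -0.59 to 1.13, two-sided exact permutation p = 0.543), and tumours spanned a 2.85-fold range.

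H2-D1, the other heavy chain, read 5.11, 5.32, 6.52 and 6.40 in Control tumours and 6.01, 6.28, 5.65 and 6.28 in Mutant tumours. Control 3 and Control 4 were both above all 4 Mutant tumours, and Control 1 and Control 2 both below. Its difference was 0.21 (SE 0.35, 95% interval -0.61 to 1.03, exact permutation p = 0.629). H2-K1 and H2-D1 have near-identical relatives in the MHC region, and signal of such relatives on these probes cannot be separated. The second H2-K1 probe followed the first across tumours (r = 0.99, n = 8) with a difference of 0.16 (SE 0.39), and both probes had Control 1 lowest and Control 3 highest.

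B2m encodes the light chain that every class I molecule shares. Its levels were 6.44, 6.58, 7.81 and 7.34 in Control and 7.22, 7.39, 6.81 and 7.36 in Mutant tumours. It had the smallest difference of the 10 genes, 0.16 (SE 0.32, 95% interval -0.58 to 0.89, exact permutation p = 0.714). From Control 1 to Control 3 the B2m signal spanned 2.59-fold. The upper end of the 95% interval of the host difference, which concerns group means and not single tumours, was 1.85-fold.

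Tap1, one subunit of the peptide transporter, varied most among tumours. It read 0.16, 0.83, 2.95 and 2.56 in Control and 1.75, 2.67, 1.41 and 2.11 in Mutant tumours, a 6.91-fold range from Control 1 to Control 3. The SD among Control tumours was 1.34 and among Mutant tumours 0.54 (n = 4 each). The difference of 0.36 (SE 0.64, 95% interval -1.12 to 1.84, exact permutation p = 0.600) was small beside this spread. A second Tap1 probe, with a lower signal, gave 0.35 (SE 0.58) and the same lowest and highest tumours.

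Tap2, its partner subunit, read 2.32, 3.13, 4.14 and 3.90 in Control and 3.65, 3.95, 3.48 and 3.75 in Mutant tumours. Mutant tumours stayed within 0.47 of each other, while Control tumours spanned 1.82. The difference was 0.33 (SE 0.38, 95% interval -0.55 to 1.21, exact permutation p = 0.514). The second Tap2 probe lay well above background on 0 of 8 arrays and was left out.

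Tapbp, which bridges the transporter and class I, varied least of the 10 genes, over a 1.84-fold range. Levels were 4.68, 4.81, 5.56 and 5.31 in Control and 5.36, 5.50, 5.11 and 5.39 in Mutant tumours. Its difference of 0.25 had the narrowest interval (SE 0.21, 95% interval -0.24 to 0.74, exact permutation p = 0.314), whose bounds correspond to 0.845-fold and 1.67-fold. The second Tapbp probe gave 0.26 (SE 0.18).

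The inducible catalytic subunits replace Psmb5, Psmb6 and Psmb7 in the immunoproteasome. Psmb8, which takes the place of Psmb5, read 2.00, 2.82, 3.95 and 3.27 in Control and 3.38, 3.51, 3.22 and 3.49 in Mutant tumours. The 4 Mutant tumours lay within 0.29 of each other, the tightest of the 10 genes, against a span of 1.95 in Control. The difference was 0.39 (SE 0.37, 95% interval -0.47 to 1.26, exact permutation p = 0.429).

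Psmb9, which takes the place of Psmb6, read 1.05, 1.55, 3.62 and 3.01 in Control and 2.91, 3.24, 2.20 and 2.72 in Mutant tumours. Its 5.92-fold range was second to that of its neighbour Tap1, and the pair of genes had an r of 0.98 over the 8 tumours. The difference was 0.46 (SE 0.57, 95% interval -0.86 to 1.77, exact permutation p = 0.514).

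Psmb10, which takes the place of Psmb7 and lies outside the MHC region, read 5.23, 5.11, 6.13 and 5.49 in Control and 5.84, 5.84, 5.28 and 5.82 in Mutant tumours. Control 4 stood below 3 of the 4 Mutant tumours, and Mutant 3 lay near the low Control tumours. The difference was 0.21 (SE 0.25, 95% interval -0.37 to 0.78, exact permutation p = 0.429).

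Nlrc5 encodes the factor that activates class I promoters without binding DNA by itself. It read 1.22, 1.94, 3.26 and 2.64 in Control and 2.49, 3.23, 2.49 and 2.98 in Mutant tumours. Both low Control tumours lay below every Mutant tumour, and Control 3 lay just above Mutant 2. Its difference, 0.53, was the largest of the 10 genes and still close to its standard error (SE 0.43, 95% interval -0.46 to 1.52, exact permutation p = 0.371). The second Nlrc5 probe, dim but above background on all 8 arrays, read -4.47, -4.54, -3.64 and -3.42 in Control and -4.31, -3.74, -4.63 and -4.10 in Mutant tumours, which turned the difference to -0.18 (SE 0.31). It followed the first probe only loosely (r = 0.66, n = 8), so the sign of the Nlrc5 difference depends on the probe.

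The constitutive counterparts varied less among tumours and tracked the inducible subunits only in part. Psmb5 differed by -0.070 between hosts (SE 0.18, 95% interval -0.49 to 0.35), Psmb6 by 0.013 (SE 0.11, 95% interval -0.25 to 0.28) and Psmb7 by -0.070 (SE 0.17, 95% interval -0.47 to 0.33). All 3 were highest in Control 3, as the inducible subunits were, but lowest in Control 4. Across tumours r was 0.46 between Psmb8 and Psmb5, 0.30 between Psmb9 and Psmb6, and 0.21 between Psmb10 and Psmb7 (n = 8 tumours on shared arrays, a description). The shift of the inducible relative to the constitutive subunit was computed within each array and compared between hosts for the 3 pairs. The shift of Psmb8 relative to Psmb5 was 0.46 (SE 0.35, exact permutation p = 0.200, adjusted over 3 pairs 0.300). For Psmb9 relative to Psmb6 it was 0.45 (SE 0.62, exact permutation p = 0.457, adjusted 0.457), and for Psmb10 relative to Psmb7 it was 0.28 (SE 0.27, exact permutation p = 0.200, adjusted 0.300). None of the 3 shifts passed an adjusted p under 0.05, and the smallest exact permutation p that 4 tumours against 4 allow is 0.0286. Each shift was smaller than its SD among Control tumours, and that of Psmb8 to Psmb5 was larger than its SD among Mutant tumours.

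**Figure D2:**
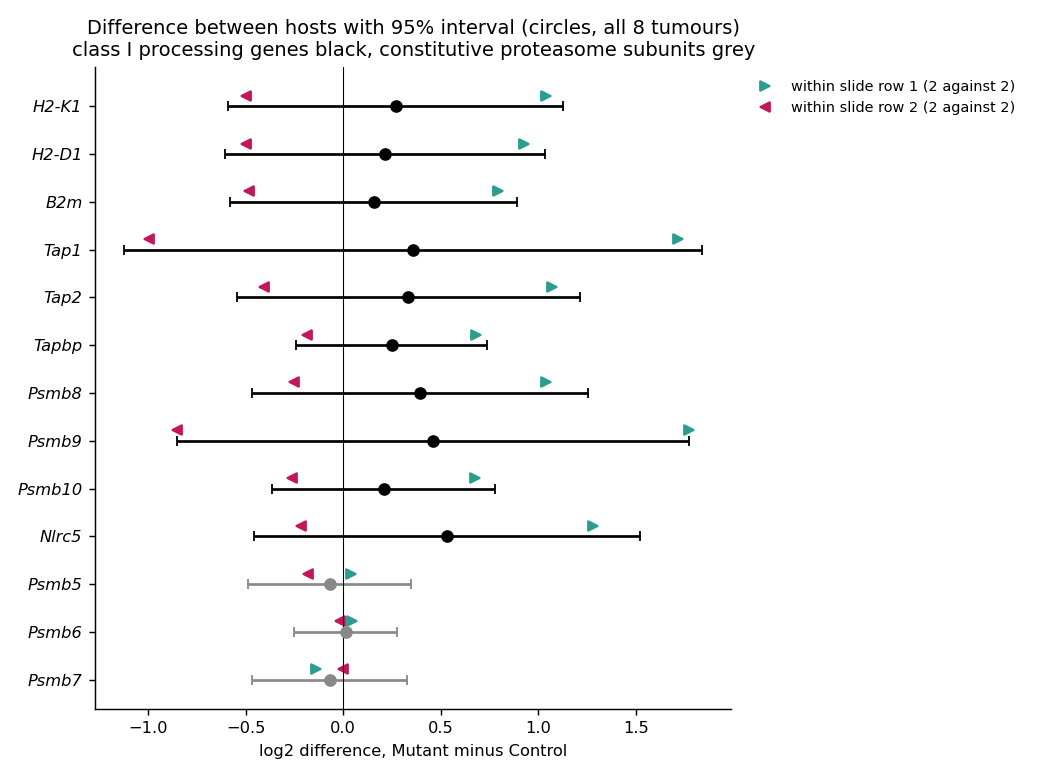
Difference between Mutant and Control tumours (x axis, log2) for the 10 class I processing genes (black) and for Psmb5, Psmb6 and Psmb7 (grey), as circles with the 95% interval of the limma fit (n = 4 against 4), and the difference within slide row 1 (right-pointing triangles) and row 2 (left-pointing triangles). All 13 intervals include 0, and for the 10 class I genes row 1 lies above 0 and row 2 below it.

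The host difference took opposite signs in the slide rows. In row 1, with 2 Control and 2 Mutant tumours, all 10 genes were higher in Mutant, by 0.68 to 1.77 with a median of 1.04. In row 2, with the other 4 tumours, all 10 were lower in Mutant, with differences of -0.996 to -0.19 and a median of -0.44. This pair of signs was found for 31.0% of the genes tested. Tap1 gave 1.71 in row 1 and -0.996 in row 2, Psmb9 gave 1.77 and -0.85, and Tapbp gave 0.68 and -0.19. The group by row interaction, chosen after these values were seen, had a median of -1.45 over the 10 genes (-2.71 for Tap1 to -0.87 for Tapbp). It passed an adjusted p under 0.05 for 0 of 10 genes, as for 0.0% of all genes in limma, and an unadjusted p under 0.05 for 9 of 10, against 10.3% of all genes, the exception being Psmb10. In limma fits of 1 row alone, an unadjusted p under 0.05 was reached by 10 of 10 genes in row 1 and 0 of 10 in row 2. Of all 16068 genes, 1912 reached it in row 1 and 621 in row 2, and 0 passed adjustment in either row. Since the 10 genes follow nearly the same order of tumours (median r 0.95), these counts over them are not separate results. The interaction restates that order, with the low Control 1 and Control 2 in row 1 and the low Mutant 3 in row 2. With 2 tumours of each host per row, an exact permutation test within a row cannot go below p = 0.333, and row, tumour number and the individual tumours cannot be told apart.

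Leaving out Control 1 turned the difference to below 0 for B2m (-0.046), H2-K1 (-0.0099), H2-D1 (-0.028), Tap1 (-0.13) and Tap2 (-0.017), and brought the median of the 10 genes to 0.016. Without Control 2 the median was 0.14, and without Mutant 2 it was 0.18. Leaving out Control 3 moved it the other way, to 0.54, with Psmb9 at 0.90 and Nlrc5 at 0.86, and without Control 4 it was 0.48. Array weights, which count tumours far from the rest of their group for less (0.25 for Control 4 and 0.48 for Control 3, against 2.29 for Mutant 1), gave a median of 0.74. With them 5 of the 10 genes had an unadjusted p under 0.05 and 0 passed after adjustment (smallest adjusted p = 0.618 in limma).

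**Figure D3:**
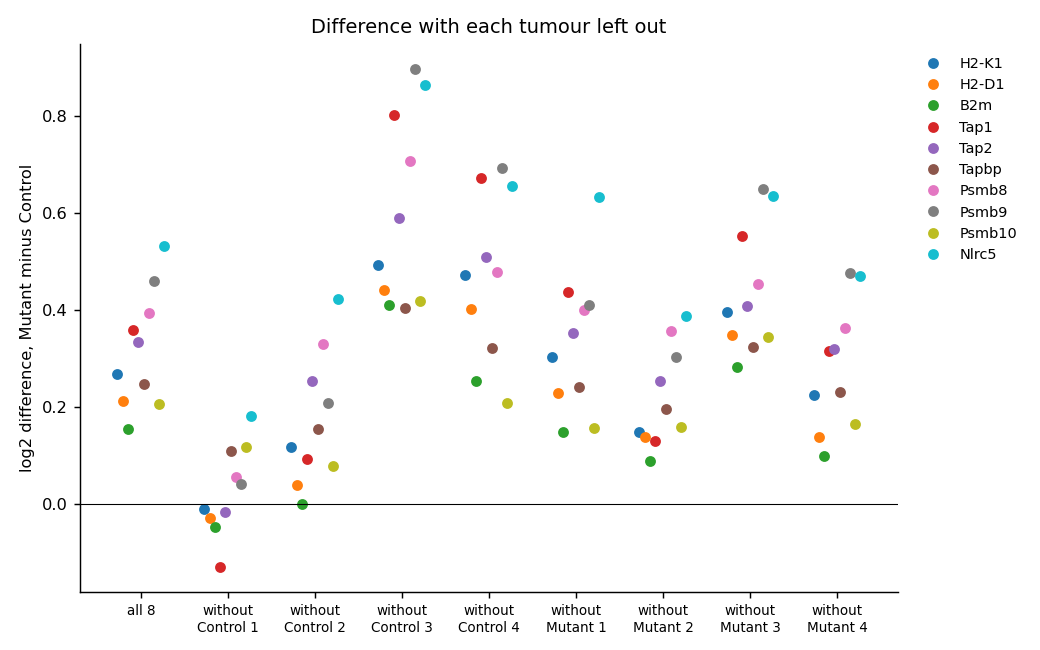
Difference between Mutant and Control tumours (y axis, log2) for each of the 10 genes with all 8 tumours and with each tumour left out in turn (x axis). The points lie between -0.13 and 0.18 without Control 1 and between 0.40 and 0.90 without Control 3.

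The common order of tumours made the 10 genes correlate with each other. Over their 45 pairs r ran from 0.75 (Tap2 and Psmb10) to 0.99 (H2-K1 and Tap1), with a median of 0.95, over 8 tumours that share arrays and their scaling. The 5 lowest pairs, with r up to 0.81, all held Psmb10. The activators Nlrc5 and Irf1 were set against the members in 19 relations across the 8 tumours, with p-values adjusted over all 19. Nlrc5 correlated with the other 9 members at r of 0.81 (Psmb10) to 0.96 (Psmb8) and rho of 0.83 to 1.0, with exact permutation p adjusted to at most 0.0107 for r and 0.0225 for rho. Without Control 1 and Control 3, the tumours farthest from the Nlrc5 median, r was 0.80 to 0.92 over 6 tumours, but the adjusted p rose above 0.05 for all 9, up to 0.0873. After each group's mean was subtracted, r was 0.79 to 0.97. These values rest on the brighter Nlrc5 probe. The second Nlrc5 probe, which followed it at r = 0.66, was not set against the members. The rows hold 4 arrays each, too few for a correlation within a row.

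**Figure D4:**
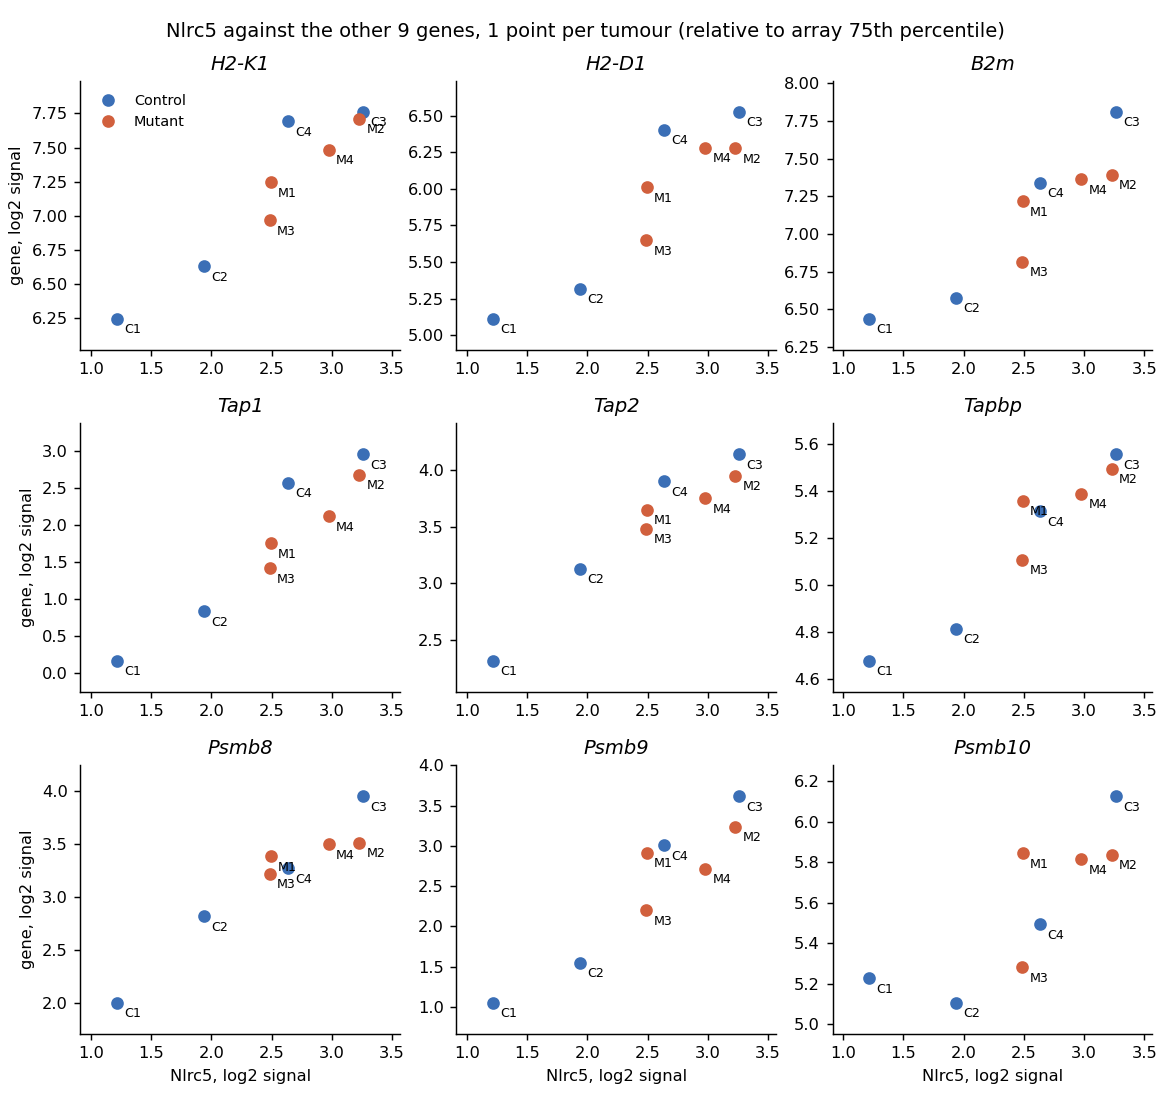
Level of each of the other 9 genes (y axis) against Nlrc5 (x axis), both as log2 signal above the array's 75th percentile, with 1 point for each Control (C, blue) and Mutant (M, orange) tumour. Points run from Control 1 at the lower left to Control 3 at the upper right, with r from 0.81 for Psmb10 to 0.96 for Psmb8.

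Irf1, an interferon-induced activator that binds class I promoters, read 4.48, 4.51, 5.28 and 4.90 in Control and 4.94, 5.08, 4.52 and 5.29 in Mutant tumours. Its difference was 0.16 (SE 0.23), and its 3 lowest tumours were those of the members, Control 1, Control 2 and Mutant 3. Irf1 correlated with the 10 members at r of 0.79 (Tap2) to 0.93 (Psmb10) and rho of 0.74 to 0.93, with adjusted exact permutation p of at most 0.00963 for r and 0.0458 for rho. Without Control 1 and Control 2, the farthest from its median, r was 0.70 to 0.89 over 6 tumours, with the adjusted p above 0.05 for all 10, up to 0.111. All 19 relations passed adjustment with any 1 tumour left out. The loss of the particular tumours and the smaller number of tumours cannot be told apart. Since the members correlate closely with each other (median r 0.95), the 19 relations are not separate results. How many of all genes would pass the same test was not computed.

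The other genes of the pathway were taken from lists written with earlier results of these data known. In each of the 9 lists no gene passed the adjusted threshold in the limma fit in either direction, beside 0.0% of all genes. Among transcription factors that act on class I promoters, 10 of 18 measured genes had a difference above 0, with a median of 0.048. Their mean r to the members had a median of 0.39. Rfx5, a DNA-binding partner of Nlrc5, was dim but above background on all 8 arrays. It ran the other way across tumours (mean r to the members -0.71, n = 8), but within a range of only 0.42. The median range over all genes tested was 0.80. The host difference of Rfx5 was 0.039 (SE 0.14). Nfyc, a subunit of a factor that binds the same promoters, had a difference of 0.31 (SE 0.13) and Nfkb1, a subunit of NF-kappa-B, one of -0.23 (SE 0.14), the smallest unadjusted p-values of the list.

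Interferon gamma and its targets had the same 3 lowest tumours as the class I genes. Ifng itself was dim but above background on all 8 arrays, at -4.84, -5.49, -1.54 and -1.81 in Control and -2.80, -1.36, -4.87 and -1.92 in Mutant tumours. Control 1, Control 2 and Mutant 3 were more than 2 units below the other 5 tumours. Its difference was 0.68 (SE 1.12, 95% interval -1.92 to 3.28). In the list of its receptor and signalling genes 4 of 7 differences were above 0, with a median of 0.0064. The smallest unadjusted p-values were those of Jak2, a receptor kinase (-0.37, SE 0.26), and the receptor chain Ifngr1 (0.25, SE 0.21). Across tumours Jak2 and Ifngr1 ran against the members (mean r -0.63 and -0.42), while the mean r of this list had a median of 0.54. The 13 interferon gamma-induced genes all had differences above 0, with a median of 0.69. Among them were Iigp1, a GTPase that attacks intracellular parasites (0.94, SE 0.89), and Gbp7, a guanylate-binding protein (0.67, SE 0.59). All 13 had Control 1, Control 2 and Mutant 3 as their 3 lowest tumours, and their mean r to the members had a median of 0.94.

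**Figure D5:**
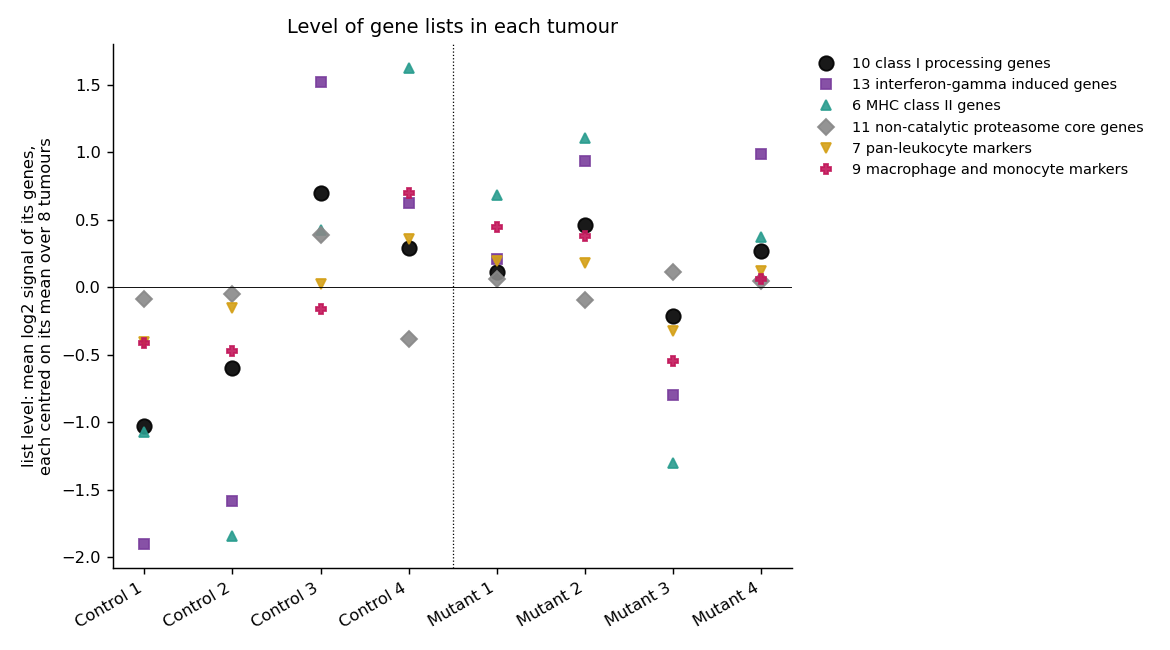
Level of 6 gene lists in each tumour (x axis), as the average log2 signal of the measured genes after each gene's own mean was set to 0 (y axis). Class I genes (circles) and interferon gamma-induced genes (squares) are lowest in Control 1 and highest in Control 3, MHC class II genes (triangles) are highest in Control 4, and non-catalytic proteasome core genes (diamonds) lie between -0.38 and 0.39.

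Proteasome core and loading genes outside the family were described in the same way. The 11 non-catalytic core proteasome genes had differences with a median of 0.051 (8 above 0) and a mean r to the members with a median of 0.27. Psma1, a ring subunit, differed by 0.36 (SE 0.29) and Psmb4 by 0.085 (SE 0.12). Of the PA28 activator, Psme1 differed by 0.11 (SE 0.15) and Psme3 by -0.16 (SE 0.17), and Psme2 was not measured. In the list of endoplasmic reticulum loading and trimming genes 5 of 5 differences were above 0, with a median of 0.18. Erap1, the peptidase that trims peptides to class I length, read -1.52, -1.65, -1.08 and -1.70 in Control and -0.99, -0.96, -1.32 and -0.996 in Mutant tumours. Apart from Mutant 3 lying below Control 3, all Mutant tumours were above all Control tumours. Its difference of 0.42 (SE 0.17, 95% interval 0.034 to 0.80, exact permutation p = 0.0571) did not pass adjustment (limma adjusted p = 0.9996). Calr, the chaperone calreticulin, differed by 0.24 (SE 0.16).

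Of the other class I heavy chain genes, 10 of 13 measured had differences above 0, with a median of 0.064, and their mean r to the members had a median of 0.90. These probes are open to shared signal, as are those of H2-K1 and H2-D1. H2-Q4, which read 6.25, 6.21, 6.10 and 5.91 in Control and 6.26, 6.32, 6.24 and 6.33 in Mutant tumours, kept to a range of 0.42 and did not follow the members (mean r -0.19). H2-T24 had a difference of -0.34 (SE 0.16). The 6 MHC class II genes, which present peptides to CD4 T cells, all had differences above 0, with a median of 0.45, Cd74 at 0.54 (SE 0.88) and H2-DMb1 at 0.48 (SE 0.73). All 6 had the members' 3 lowest tumours, Control 1, Control 2 and Mutant 3, against 5.23% of the genes tested. On average they were highest in Control 4 rather than Control 3, and their mean r to the members had a median of 0.73.

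The named genes outside the family whose tumour pattern was most like that of the 10 members, by mean r over the 8 tumours, ranked 1, 2, 3, 5 and 6 among all genes, with a predicted or unnamed gene model left out at rank 4. They were Tgtp2 (0.96), Iigp1 (0.96), Coro2a (0.96), Igtp (0.96) and Zbp1 (0.95). Tgtp2, Iigp1 and Igtp are interferon-induced GTPases, Zbp1 senses nucleic acids, and Coro2a is a coronin. Their differences between hosts were 0.80 (SE 0.79) for Tgtp2, 0.94 (SE 0.89) for Iigp1, 0.34 (SE 0.43) for Coro2a, 0.79 (SE 0.87) for Igtp and 0.36 (SE 0.52) for Zbp1. All 5 were lowest in Control 1 and highest in Control 3, which is no separate result, since they were chosen for their likeness to the members.

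Markers of the cells a tumour can hold moved with the class I genes to different degrees. The level of 10 measured T cell markers, averaged over genes after each gene's mean was set to 0, ran from -1.69 to 1.25 in Control and from -0.92 to 0.60 in Mutant tumours. Of these 10, 8 had the members' 3 lowest tumours, against 5.23% of the genes tested. The mean r of the T cell markers to the members had a median of 0.67. The level of 6 measured natural killer and cytotoxic genes ran from -1.61 to 0.91 in Control and from -0.75 to 0.82 in Mutant tumours, with 5 of 6 sharing the 3 lowest tumours. For the 7 pan-leukocyte genes the level ran from -0.40 to 0.36 and from -0.33 to 0.20, and for the 9 macrophage and monocyte genes from -0.47 to 0.70 and from -0.55 to 0.45, with 5 of 7 and 2 of 9 sharing those tumours. Of the measured dendritic cell genes 1 of 7 shared them, and of the B cell genes 0 of 3. The median of the mean r to the members was 0.76 for natural killer and cytotoxic genes and 0.58 for pan-leukocyte genes. It was 0.38 for macrophage and monocyte, 0.36 for dendritic cell and 0.31 for B cell genes. The part of these cells in the class I levels was not tested.

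Defining markers were above background in most or all tumours. Cd8a, the CD8 T cell coreceptor, was well above background on 7 of 8 arrays and read -5.18, -6.84, -2.23 and -2.78 in Control and -2.96, -2.67, -4.70 and -2.33 in Mutant tumours, lowest in the 3 tumours where the class I genes were lowest. Cd3e read -0.14 to 1.37 in Control and 0.44 to 0.77 in Mutant tumours, with a host difference of 0.034 (SE 0.29). For Cd8a the host difference was 1.09 (SE 1.05). Differences above 0 were found for 9 of 10 measured T cell genes (median 0.28), against 52.4% of all genes tested. So were those of 5 of 6 natural killer and cytotoxic genes (median 0.32), and 0 genes of either list passed adjustment in limma. The leukocyte marker Ptprc differed by 0.14 (SE 0.27), the macrophage marker Adgre1 by 0.054 (SE 0.33), the endothelial marker Pecam1 by -0.044 (SE 0.18) and the fibroblast gene Col1a1 by 0.10 (SE 0.86). Pecam1 was the exception in its list, where the other 6 of 7 endothelial genes had differences above 0 (median of the 7 genes 0.18). Krt19, an epithelial keratin taken as a marker of the cancer cells, differed by -0.61 (SE 0.49). All 5 measured epithelial genes were below 0 (median -0.53), 2 of them at an unadjusted p under 0.05 in limma and 0 after adjustment. The skeletal muscle actin Acta1 was above background on all 8 arrays, with a host difference of 2.05 (SE 0.69, limma adjusted p = 0.9996). All 10 skeletal muscle genes had differences above 0 (median 2.87), 7 of them at an unadjusted p under 0.05 in limma, against 2.91% of all genes, and 0 after adjustment. Their level ran from -3.52 to 0.40 in Control and from -0.84 to 2.93 in Mutant tumours, with a median mean r to the members of 0.072. The part of muscle or epithelial cells in the class I levels was not tested.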

How the data were processed

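Total RNA of 8 tumours was hybridised to 1-colour arrays, with 0.5 ug labelled per array per the labels' protocols. Per the file headers, intensity came from Agilent Feature Extraction 10.7.3.1 (the submitters' processing notes name 9.1), subtracted for background and detrended within the array by the authors and deposited on a linear scale. The spot flags that the authors deposited beside it have no unit (other). The authors' deposited value table holds the same intensity, equal within 0.01% for at least 99.46% of probes. From the deposited values, outlier spots (66 to 117 per array) and control spots were removed, spots of a probe averaged, log2 taken and the array's 75th percentile subtracted. Such centring measures a gene relative to the rest of the array, so a general shift in RNA would not be seen.

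A probe was kept where 4 or more of the 8 arrays had it well above background, and a gene was represented by its brightest probe on average. Genes were named through unversioned RefSeq accessions and a GRCm38.p6 table (32994 probes with 1 gene, 0 with several, 23611 with none). The array design names another build, so no coordinates are given.

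The comparison used limma 3.58.1 (R 4.3.3) with group as the only term and Benjamini-Hochberg adjustment over 16068 genes, and single values by two-sided exact permutation over 70 arrangements. Intervals are those of limma. Tumours were treated as independent mice. The number of arrays limits precision. The members, lists and alternatives were chosen with earlier results of these data known. Named genes were the members, Psmb5, Psmb6, Psmb7, Irf1, Rfx5 and Ifng, the 2 genes of smallest p in each pathway list, the 5 most alike by mean r, and 1 defining marker per main cell type; Ext1 was added as the targeted gene, and 1 gene that the rule names is not reported here. The pipeline was tested on simulated data. Alternatives were normexp (offset 50, on median spot and background signals), quantile normalization, median centring, 3 other dim-probe filters, the mean of a gene's probes, each probe by itself, the value table, a variance trend, array weights, blocks for replicate number and slide row, and leaving out each tumour. Sequences of probes and promoters were not used here. Python 3.11.15, pandas 2.3.3 and scipy 1.17.1 were used.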

Additional observations from a re-analysis of the deposited data

Results flagged for a closer look

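In 82 groups of 4 tumours (41 named genes, each in Control and in Mutant) the gap between the highest or lowest tumour and its nearest neighbour was set against the group's range, with Dixon's 95% critical value, which chance passes in about 1 of 20 groups. In 3 groups 1 tumour stood apart, each time Mutant 3 below the other Mutant tumours. Psmb10 read 5.28 in Mutant 3, against 5.82 to 5.84 in the other 3. Psme1 read 4.71 there, against 4.98 in each of the others, and Erap1 read -1.32, against -0.996 to -0.96.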

How the results depend on the processing

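All 10 differences kept a sign above 0 under normexp, quantile normalization, median centring, the other dim-probe filters, the mean of a gene's probes, the value table, the variance trend, array weights and both blocks, and no gene passed the adjusted threshold under any alternative. Turned values were those within slide row 2: B2m -0.49, H2-K1 -0.50, H2-D1 -0.50, Tap1 -0.996, Tap2 -0.40, Tapbp -0.19, Psmb8 -0.25, Psmb9 -0.85, Psmb10 -0.26 and Nlrc5 -0.22, with a median of -0.44 against 1.04 in row 1, and the relative shifts of Psmb8 to Psmb5 (-0.072), Psmb9 to Psmb6 (-0.83) and Psmb10 to Psmb7 (-0.26). Nlrc5 also turned with its second probe (-0.18). The cause was not tested. With a tumour left out, differences ran from -0.046 to 0.41 (B2m), -0.0099 to 0.49 (H2-K1), -0.028 to 0.44 (H2-D1), -0.13 to 0.80 (Tap1), -0.017 to 0.59 (Tap2), 0.11 to 0.40 (Tapbp), 0.057 to 0.71 (Psmb8), 0.042 to 0.90 (Psmb9), 0.079 to 0.42 (Psmb10) and 0.18 to 0.86 (Nlrc5), and their median from 0.016 to 0.54. Without the 2 farthest tumours, r with Nlrc5 was 0.861 for B2m, 0.868 for H2-K1, 0.828 for H2-D1, 0.871 for Tap1, 0.884 for Tap2, 0.910 for Tapbp, 0.922 for Psmb8, 0.837 for Psmb9 and 0.797 for Psmb10. With Irf1 it was 0.875 for B2m, 0.751 for H2-K1, 0.834 for H2-D1, 0.705 for Tap1, 0.730 for Tap2, 0.888 for Tapbp, 0.768 for Psmb8, 0.727 for Psmb9, 0.875 for Psmb10 and 0.781 for Nlrc5. None of these 19 passed adjustment, while all 19 did with any 1 tumour left out, and the 19 are not separate results. At an unadjusted p under 0.05 the 467 genes became 1132 with every probe tested by itself (36824 probes), 1280 with array weights, 1912 within row 1 and 195 to 972 with a tumour left out.

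Over all genes tested, tumours that share a replicate number did not deviate together (correlations of 0.078, -0.31, 0.051 and -0.31). Such correlations cannot exclude that the number pairs tumours in a way the labels do not state. With the replicate number as a block the 10 differences were the same (B2m 0.16, Nlrc5 0.53, median 0.30). In that fit 0 of 10 had an unadjusted p under 0.05, and 371 genes did. The counts of promoter motifs that had been planned were not run, because promoter sequence was not used here.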

Other observations

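Among all the genes on the pathway and cell type lists, 3 outside the naming rule were singled out after their values were seen. Tapbpl, a relative of tapasin that edits the peptides class I carries, had the highest mean r to the members among the loading genes (0.94, n = 8 tumours) and read -0.54, -0.33, 0.76 and 0.36 in Control and 0.36, 0.44, -0.23 and 0.33 in Mutant tumours. Its host difference was 0.16 (SE 0.31). Gzmb, a protease of cytotoxic lymphocytes, followed the members most closely of the measured natural killer and cytotoxic genes (mean r 0.95). It read -4.87, -4.79, -1.46 and -2.46 in Control and -2.39, -1.81, -3.73 and -2.45 in Mutant tumours, with a difference of 0.80 (SE 0.83). Pdgfra, a receptor of fibroblasts, ran against the members (mean r -0.89), at 3.56, 2.87, 2.29 and 2.52 in Control and 2.74, 2.45, 2.92 and 2.21 in Mutant tumours. Its 3 highest tumours were Control 1, Mutant 3 and Control 2, the 3 lowest for the class I genes. Fibroblast genes differed among themselves in this, and over the 9 on the list the mean r had a median of 0.23. Dpt was at 0.74, Pdpn at 0.62, Col3a1 at 0.42, Col1a1 at 0.36 and Col1a2 at 0.23. Dcn (-0.39), Pdgfrb (-0.24) and Lum (-0.15) were below 0, as Pdgfra was. These values are a description over 8 tumours, and the part of cell makeup in them was not tested.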
